A study of Mus musculus with 6 samples.

Results

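The genes described are the 152 solute carriers, of 24061 genes in the table, whose symbol is Slc with a number, a letter and a number and which had at least 300 raw counts over 6 libraries. Of 363 genes with such a symbol, 47 mitochondrial Slc25 carriers and 12 others, mostly amino acid carriers and the glucose and lactate carriers Slc2a1 and Slc16a3, are left out by definition. That leaves 304, of which 152 were under the count minimum and 52 of those had no read at all. The members were thus chosen by their symbol and selected on their summed raw counts, with no use of the difference between groups. Just inside the minimum lay Slc10a1 with 300 counts and Slc7a8 with 304, and just outside it Slc18a2 with 291 and Slc1a2 with 277. All 152 passed the filter on low counts.

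Solute carriers are membrane proteins that move small molecules across the plasma membrane and the membranes of organelles without splitting ATP. Some let a substrate run down its own gradient, and others couple it to sodium, protons, chloride or a second substrate. The family number names a related group, so that Slc39 proteins bring zinc and other metals into the cytosol, Slc30 proteins move zinc out of it, Slc35 proteins carry mostly nucleotide sugars into the Golgi apparatus and the endoplasmic reticulum, and Slc44 proteins are choline transporter-like proteins. In fibroblasts such carriers feed metal, sulfate and sugar donors to the enzymes that build and modify the extracellular matrix.

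The libraries are RNA sequencing of cultured fibroblasts from fibrotic lungs of mice that carry a TGF-alpha transgene, a growth factor that acts through the EGF receptor. The cells of 3 libraries (W4, W5 and W6) had received an siRNA against Wt1, a zinc finger transcription factor, and those of the other 3 (C1, C2 and C3) a control siRNA; both groups carry the transgene. Library totals ran between 26.1 and 32.1 in units of 1e6 counts. No source used here gives the promoter of the transgene, the age of the mice, the siRNA sequences or whether a group's libraries are separate cultures or mice. The p-values therefore rest on a spread between samples that may be technical. Levels are counts scaled per 1e6 (CPM) of the library total times its TMM factor, and values in brackets after them are log2 fold changes (Wt1 siRNA over control siRNA) ± SE with the adjusted p of edgeR. Values by library are in the order W4, W5 and W6, then C1, C2 and C3, and means carry the SD over 3 libraries. In bulk RNA fewer cells of a type and less RNA per cell cannot be told apart.

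Wt1 itself had 11.4, 8.63 and 7.92 CPM in Wt1 siRNA libraries, against 48.8, 55.7 and 51.5 CPM in controls. It was lower after Wt1 siRNA, by a log2 fold change of -2.48 ± 0.16 (SE, n = 3 each; edgeR, adjusted p = 5.98e-06). All 9 fibroblast markers checked were counted, at a summed 32828 to 37750 CPM of the unscaled library total after Wt1 siRNA, against 21575 to 30631 in controls; 5 of them rose and 2 fell. Of 8 epithelial markers, which summed to 39.1 to 43.7 after Wt1 siRNA against 49.9 to 63.5 in controls, 4 were tested and 1 fell. The 5 endothelial markers summed to 71.9 to 81.6 after Wt1 siRNA against 86.8 to 107 in controls, and 1 fell. The 7 leukocyte markers summed to 19.5 to 25.8 after Wt1 siRNA against 19.9 to 26.5 in controls, and those of smooth muscle and pericytes (5) to 261 to 310 after Wt1 siRNA against 311 to 353 in controls, with none called. The 4 mesothelial markers summed to 87.5 to 110.5 after Wt1 siRNA against 123 to 152 in controls. Scgb1a1 of club cells and Cd3e of T cells had 0 reads. Among the mesothelial markers Msln and Krt19 rose and Upk3b and Lrrn4 fell. The part of such cells in the results on carriers was not tested.

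After Wt1 siRNA, 22 of the 152 carriers rose and 20 fell. The largest called rises were those of Slc40a1, the iron exporter ferroportin, Slc38a4, a carrier of neutral amino acids, Slc27a6, a fatty acid transport protein, and Slc19a2, a thiamine carrier. The largest called falls were those of the choline transporter-like genes Slc44a3 and Slc44a1, of Slc10a6, a carrier of sulfated steroids, and of Slc6a17, a vesicular amino acid carrier. By role, the falls were spread over metals (6), inorganic ions (5), organic ions, vitamins and lipids (5), amino acids (2), sugars (1) and nucleosides, nucleotide sugars and acetyl-CoA (1). The rises were spread over nucleosides, nucleotide sugars and acetyl-CoA (6), amino acids (5), sugars (4), metals (4) and organic ions, vitamins and lipids (3).

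Called members made up 27.6% of the 152 (quasi-likelihood test of edgeR; p adjusted by Benjamini-Hochberg over 14190 genes, threshold 0.05). The background was 19.3% of all genes tested, with 9.05% higher and 10.3% lower, against 14.5% and 13.2% of the carriers. Among the 12292 genes that met the same minimum of 300 counts, a comparison added after the data had been seen, 21.9% were called. Of these genes 10.3% were higher and 11.6% lower. The median log2 fold change of the carriers was 0.08, against 0.00 over all genes tested, and 86 of 152 values were positive. Groups of libraries did not overlap in 65 carriers, or 42.8%, against 36.4% of all genes tested. For the genes with at least 300 counts the share was 39.03%. By count total, calls were made for 8 of the 51 least counted, 15 of the middle 50 and 19 of the 51 most counted. The number that rose was 14 without C3, 11 without W4 and 13 without W5, while the number that fell stayed between 14 and 25.

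**Figure D1:**
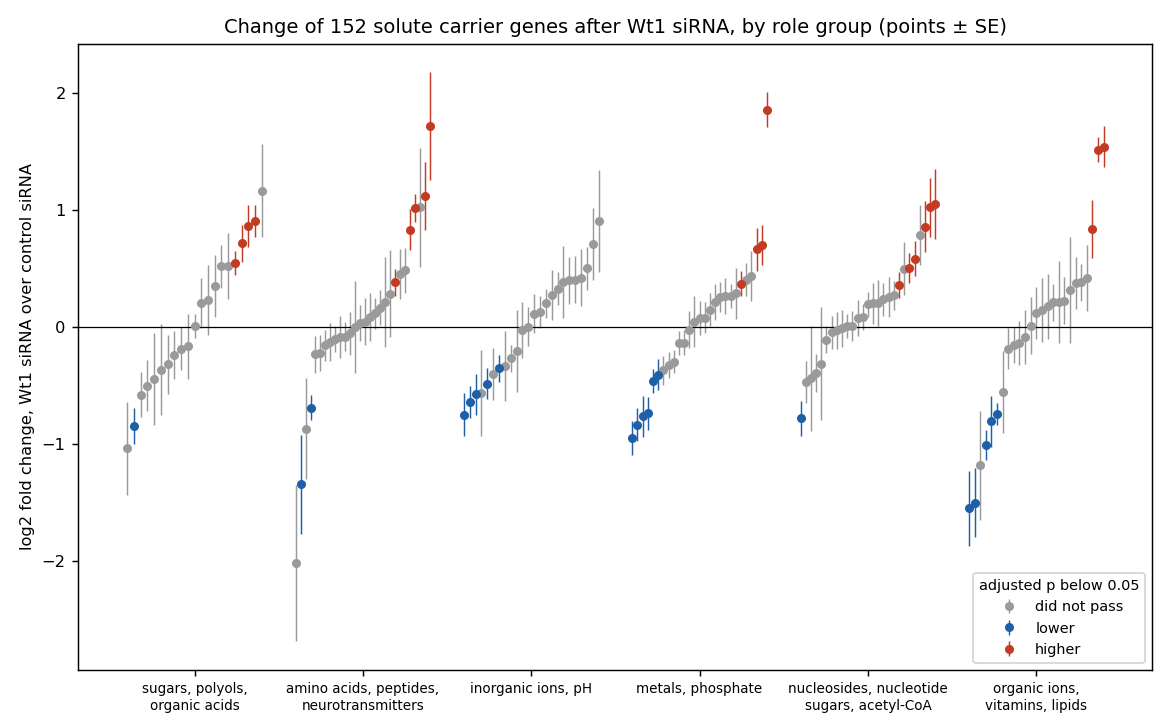
Log2 fold change (Wt1 siRNA over control siRNA, points ± SE) of each of the 152 carriers, ordered within 6 role groups, with called rises in red, called falls in blue and the others in grey. The called values run from -1.55 for Slc44a3 to 1.85 for Slc40a1, and no gene of the group of inorganic ions and pH is red.

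Levels per kilobase of exon differed widely between carriers, from 0.193 to 90.5 CPM per kilobase over the 6 libraries. The median was 4.85 for the carriers, against 6.47 for all genes tested and 8.06 for those with at least 300 counts. The most abundant carrier was Slc48a1, which moves heme out of endolysosomes, at 90.5 CPM per kilobase. It was followed by Slc39a1 at 71.1, Slc39a7 at 68.9, Slc44a2 at 61.2 and the creatine carrier Slc6a8 at 58.9 CPM per kilobase. Metals and phosphate had the highest group median, 15.01 CPM per kilobase, and amino acids and neurotransmitters the lowest, 2.90. Added up, the carriers had 5679, 6091 and 5582 CPM after Wt1 siRNA and 5830, 5810 and 5958 CPM in controls. These sums overlap between the groups. As a share of raw counts the carriers took 0.555% to 0.572% after Wt1 siRNA and 0.585% to 0.621% in controls, without overlap, so that the comparison of sums depends on the scaling.

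Promoters are shown for some called rises and falls with small p for which RefSeq windows were at hand. They are printed so that the letters beside these changes can be read. The choice did not strictly follow the rank by p. Slc27a6 rose with an unadjusted p of 1.57e-06 (edgeR), against 1.60e-06 for Slc38a6, and is not shown. Windows are from GRCm38.p6 and run from 250 bases before to 50 after a start site. Where a gene has several windows, the first is printed. Capitals mark matches, on either strand, to GNGTGGGNG, a pattern that Wt1 and Egr1 sites share, to GCGGGGGCG, an Egr1 consensus, or to TGCACNC or TGCGCNC, the core of the metal response element. Slc19a2 at chr1:164248796-164249095 and Slc38a6 at chr12:73286598-73286897 rose, and Slc44a1 at chr4:53440163-53440462 and Slc44a2 at chr9:21320469-21320768 fell, all on the plus strand.
Slc19a2: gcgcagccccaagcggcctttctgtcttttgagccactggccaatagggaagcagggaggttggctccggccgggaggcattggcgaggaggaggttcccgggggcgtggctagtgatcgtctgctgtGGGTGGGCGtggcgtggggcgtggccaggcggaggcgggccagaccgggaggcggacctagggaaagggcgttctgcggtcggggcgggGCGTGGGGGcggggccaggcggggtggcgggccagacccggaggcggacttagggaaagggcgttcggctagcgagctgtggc
Slc38a6: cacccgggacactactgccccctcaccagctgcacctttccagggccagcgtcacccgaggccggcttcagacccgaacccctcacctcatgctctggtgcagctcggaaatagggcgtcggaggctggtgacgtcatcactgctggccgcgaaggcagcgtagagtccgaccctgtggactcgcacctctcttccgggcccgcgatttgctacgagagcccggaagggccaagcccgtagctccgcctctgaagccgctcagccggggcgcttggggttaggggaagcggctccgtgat
Slc44a1: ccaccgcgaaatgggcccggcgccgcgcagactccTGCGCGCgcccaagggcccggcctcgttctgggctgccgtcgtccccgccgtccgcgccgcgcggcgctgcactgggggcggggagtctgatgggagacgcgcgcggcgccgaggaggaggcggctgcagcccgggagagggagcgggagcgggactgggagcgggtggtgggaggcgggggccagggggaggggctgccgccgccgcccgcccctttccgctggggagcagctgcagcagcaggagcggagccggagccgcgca
Slc44a2: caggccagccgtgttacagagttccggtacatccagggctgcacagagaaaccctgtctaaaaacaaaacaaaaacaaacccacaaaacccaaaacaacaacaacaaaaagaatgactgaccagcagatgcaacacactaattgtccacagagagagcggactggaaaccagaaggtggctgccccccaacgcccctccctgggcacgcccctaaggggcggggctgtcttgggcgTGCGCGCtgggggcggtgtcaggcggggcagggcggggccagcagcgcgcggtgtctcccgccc
The window of Slc19a2 held 2 matches to GNGTGGGNG, those of Slc44a1 and Slc44a2 held 1 match each to a metal response core, and that of Slc38a6 held none of these patterns. Of the windows of members that rose 3 of 24 held GNGTGGGNG, and of those that fell 4 of 22, or 12.5% and 18.2%, against 14.3% of all 32851 windows and 20.1% of the 164 windows of all members (118 genes had one). GCGGGGGCG was in 7.32% of the windows of members, 8.33% for those that rose and 4.55% for those that fell, against 2.91% of all windows. A metal response core was in 35.98% of the windows of members and 25.7% of all. For members that rose the share was 33.3% and for those that fell 31.8%, both below that of all members. Some of these patterns can overlap, and a match is a description of the letters, not of binding.

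Among the metal and phosphate carriers, 4 of 27 rose and 6 fell, with a median log2 fold change of 0.08. Slc40a1 (chromosome 1, 45908070 to 45926532) encodes ferroportin, the known exporter of iron from mammalian cells. It had 28.1, 29.2 and 26.2 CPM in Wt1 siRNA libraries, against 7.38, 7.21 and 8.50 CPM in controls. Every Wt1 siRNA library stood far above every control. The log2 fold change was 1.85 ± 0.15 (SE; edgeR, adjusted p = 2.20e-05), the largest called rise of the 152 carriers. Slc20a1, a sodium-phosphate cotransporter, had 128, 127 and 136 CPM in Wt1 siRNA libraries, against 80.8, 56.98 and 102 CPM in controls; it rose by 0.70 ± 0.17 on the log2 scale (adjusted p = 0.0135), with adjusted p = 0.0549 without W4. Slc39a3, a zinc importer, rose by 0.66 ± 0.18 on the log2 scale (adjusted p = 0.0260). Slc41a2, a magnesium carrier, rose by 0.37 ± 0.11 on the log2 scale (adjusted p = 0.0346), a call that was lost with library size scaling and held in 1 of the 6 fits with a library left out. The number of rises in the group was 2 without C2, 1 without W4, 2 without W5 and 2 with library size scaling.

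The falls in this group were all in the zinc families. Slc39a14 (chromosome 14, 70303467 to 70351452), the importer ZIP14 of zinc, iron and manganese, had 85.9, 81.7 and 122 CPM in Wt1 siRNA libraries, against 187, 175 and 197 CPM in controls. It was lower after Wt1 siRNA, by a log2 fold change of -0.95 ± 0.15 (SE, n = 3 each; edgeR, adjusted p = 0.00103). W6 was the highest of its group and still well below the lowest control. Slc30a4, a zinc exporter of vesicles, had 52.6, 58.2 and 66.2 CPM in Wt1 siRNA libraries, against 108, 85.8 and 123 CPM in controls (-0.84 ± 0.14, adjusted p = 0.00186). Slc39a10, a plasma membrane importer, had 47.2, 50.1 and 56.1 CPM in Wt1 siRNA libraries, against 87.2, 68.9 and 100.5 CPM in controls (-0.74 ± 0.14, adjusted p = 0.00372). Slc39a8, the importer ZIP8 of zinc and manganese and a close relative of Slc39a14, had 8.55, 7.503 and 8.54 CPM in Wt1 siRNA libraries, against 15.2, 13.5 and 13.2 CPM in controls (-0.77 ± 0.17, adjusted p = 0.00912). In all 3 genes the groups did not overlap, which was a condition of the rule for naming falls. Slc39a1, a widely expressed zinc importer, was far more abundant at 144 ± 22.5 CPM after Wt1 siRNA and 192 ± 22.001 CPM in controls (SD, n = 3 each) (-0.41 ± 0.13, adjusted p = 0.0473), a fall that did not pass without C2, C3, W4 or W6. Slc30a9, which exports zinc from mitochondria, fell by 0.47 ± 0.10 on the log2 scale (adjusted p = 0.00825).

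Of the 10 Slc39 genes among the members 4 fell and 1 rose, and of the 6 Slc30 genes 2 fell and 0 rose. Of all genes tested 10.3% were lower and 9.05% higher. The median log2 fold change was -0.34 for Slc39 and -0.03 for Slc30. The count of 0 rises in Slc30 was also found with DESeq2 and limma-voom, while 1 was higher at an unadjusted p below 0.05. Slc39a3, the single rise, did not pass without C2, C3, W4 or W5, or with library size scaling. Slc30a1, the main zinc exporter of the plasma membrane, had 24.03, 27.4 and 30.9 CPM in Wt1 siRNA libraries, against 29.1, 22.6 and 26.4 CPM in controls, a log2 fold change of 0.08 ± 0.15, adjusted p = 0.775. Slc39a7, a zinc carrier of the endoplasmic reticulum, had 175 ± 29.2 CPM after Wt1 siRNA and 151 ± 29.1 CPM in controls (0.21 ± 0.15, adjusted p = 0.388), and shares 84.5% of its exon bases with the annotated transcript Gm20427. These 2 did not pass.

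**Figure D2:**
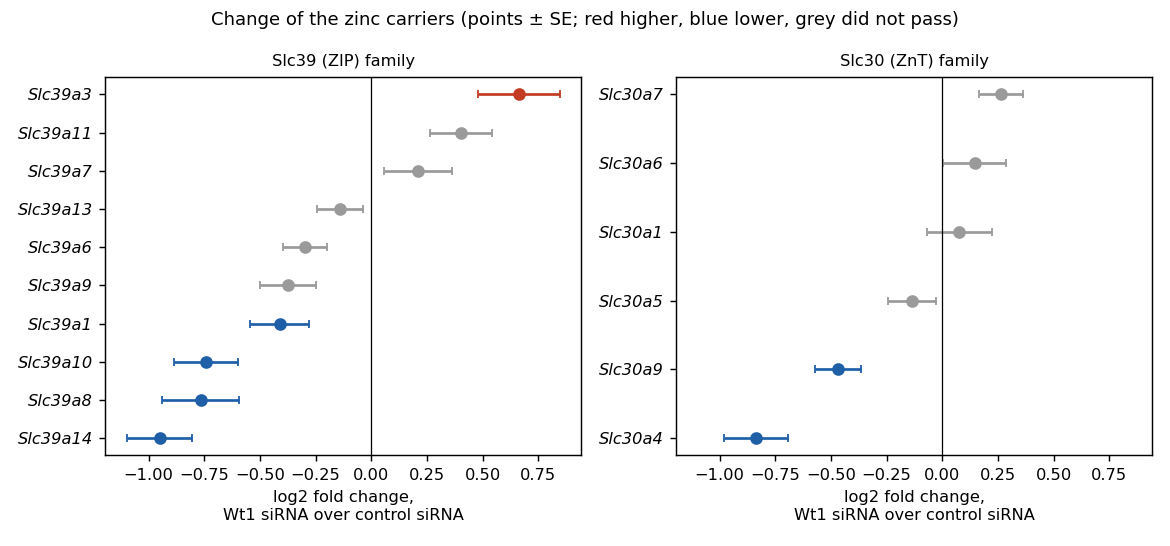
Log2 fold change (Wt1 siRNA over control siRNA) with SE for the 10 Slc39 and 6 Slc30 genes, each on its own line, with rises in red, falls in blue and genes that did not pass in grey. The falls run from -0.95 for Slc39a14 to -0.41 for Slc39a1, and Slc39a3 at 0.66 is the single rise.

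Slc11a2 and Slc48a1, carriers of iron and of heme, did not pass. Slc11a2, the divalent metal importer DMT1, had 36.1, 41.6 and 38.96 CPM in Wt1 siRNA libraries, against 34.5, 28.6 and 34.5 CPM in controls (0.26 ± 0.13, adjusted p = 0.193), with groups that did not overlap. Slc48a1 averaged 250.2 ± 45.6 CPM after Wt1 siRNA and 209 ± 37.1 CPM in controls (0.26 ± 0.16, adjusted p = 0.278). Of 16 further genes of zinc and iron handling, 15 were tested, 7 were lower and 1 higher, against 10.3% and 9.05% of all genes; 3 were lower without W4, and 0 higher without C1, C3 or W4. Cp, the ferroxidase ceruloplasmin that works with ferroportin, had 52.7, 43.4 and 61.9 CPM in Wt1 siRNA libraries, against 127, 116 and 120.5 CPM in controls (-1.20 ± 0.13, adjusted p = 1.48e-04). Ftl1, the ferritin light chain, averaged 4273 ± 409 CPM after Wt1 siRNA and 2937 ± 531 CPM in controls and rose (0.54 ± 0.13, adjusted p = 0.0125), whereas Fth1, the heavy chain, averaged 649 ± 37.6 CPM after Wt1 siRNA and 899 ± 62.6 CPM in controls and fell (-0.47 ± 0.10, adjusted p = 0.00681). Hmox1, the heme oxygenase that frees iron from heme, fell by 0.75 ± 0.14 on the log2 scale (adjusted p = 0.00352). Mt1, a metallothionein that binds zinc, fell by 0.69 ± 0.14 on the log2 scale (adjusted p = 0.00627). Mt2 of the same list averaged 216 ± 19.4 CPM after Wt1 siRNA and 233 ± 43.2 CPM in controls. It did not pass (-0.11 ± 0.14, adjusted p = 0.635). Ferritin genes have many processed copies in the mouse genome, so that their counts are uncertain. Tfrc, the transferrin receptor, averaged 96.1 ± 14.8 CPM after Wt1 siRNA and 89.1 ± 25.02 CPM in controls and did not pass (0.11 ± 0.19, adjusted p = 0.749).

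Carriers of organic ions, vitamins and lipids held 3 rises and 5 falls among 25 genes, with a median of 0.11. Slc19a2 (chromosome 1, 164249046 to 164265385) encodes a high-affinity carrier of thiamine, vitamin B1, and its promoter with matches to GNGTGGGNG is printed above. It had 114, 113 and 103 CPM in Wt1 siRNA libraries, against 37.97, 37.3 and 39.99 CPM in controls. The Wt1 siRNA libraries lay close together and far above the controls, which were as close among themselves. The log2 fold change was 1.51 ± 0.11 (SE; edgeR, adjusted p = 1.11e-05). Slc27a6, a fatty acid transport protein with acyl-CoA synthetase activity known best from heart, had 35.9, 37.4 and 27.2 CPM in Wt1 siRNA libraries, against 13.7, 11.2 and 9.62 CPM in controls; the log2 fold change was 1.54 ± 0.18 (SE; edgeR, adjusted p = 1.78e-04). Slc46a1, the proton-coupled folate carrier, rose by 0.83 ± 0.25 on the log2 scale (adjusted p = 0.0360), a call that was lost with limma-voom, with library size scaling and without C1, C3, W4 or W5. The other folate and vitamin carriers did not pass: Slc19a1, the reduced folate carrier, had a log2 fold change of 0.11 ± 0.22, adjusted p = 0.781, Slc23a2, a vitamin C carrier, of -0.19 ± 0.17, adjusted p = 0.506, and Slc5a6, the multivitamin carrier, of 0.01 ± 0.25, adjusted p = 0.985.

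All 3 Slc44 genes among the members fell, in every alternative tried, against 10.3% of all genes tested that were lower. Slc44a4 (16 counts) and Slc44a5 (13 counts) were under the count minimum. Slc44a1 (chromosome 4, 53440387 to 53622478), a choline transporter of the plasma membrane and mitochondria, had 21.8, 23.9 and 20.6 CPM in Wt1 siRNA libraries, against 46.1, 47.2 and 40.03 CPM in controls. It was lower after Wt1 siRNA, by a log2 fold change of -1.01 ± 0.13 (SE, n = 3 each; edgeR, adjusted p = 2.99e-04). Slc44a2 (chromosome 9, 21320719 to 21355028), the most abundant of the 3, had 163, 167 and 165 CPM in Wt1 siRNA libraries, against 279, 284 and 269 CPM in controls (-0.75 ± 0.10, adjusted p = 3.24e-04). Slc44a3, a less studied member, had 2.19, 1.41 and 2.003 CPM in Wt1 siRNA libraries, against 4.54, 7.18 and 4.77 CPM in controls (-1.55 ± 0.32, adjusted p = 0.00584), and shares 13.3% of its exon bases with a transcript of the opposite strand. Each of these genes had its highest Wt1 siRNA library below its lowest control, which the naming rule required for Slc44a1 and Slc44a3. The median of the 3 log2 fold changes was -1.01. Slc10a6, which imports sulfated steroids, fell as well, with 3.09, 3.08 and 2.41 CPM in Wt1 siRNA libraries, against 9.63, 9.54 and 5.11 CPM in controls (-1.504 ± 0.29, adjusted p = 0.00388). Slc22a23, an organic ion carrier with no known substrate, fell by 0.81 ± 0.22 on the log2 scale (adjusted p = 0.0226), a call lost without C3, W4 or W6. Slc27a4, a fatty acid transport protein, had 40.9 ± 7.62 CPM after Wt1 siRNA and 35.4 ± 5.73 CPM in controls and did not pass (0.21 ± 0.16, adjusted p = 0.411). Slc14a1, a urea carrier, varied widely within groups: it had 6.25, 8.66 and 17.7 CPM in Wt1 siRNA libraries, against 18.6, 10.7 and 45.3 CPM in controls, and did not pass (-1.19 ± 0.46, adjusted p = 0.0968).

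**Figure D3:**
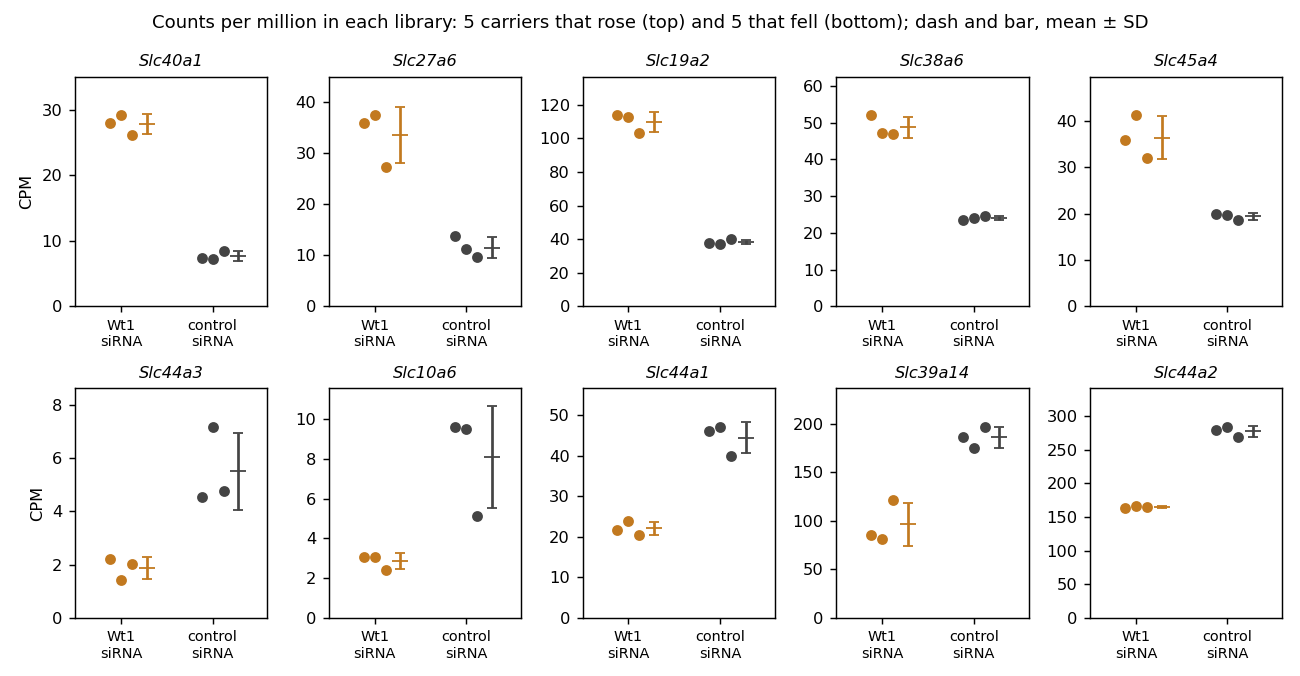
CPM in each library (points) with the mean and SD (dash and bar) for 5 carriers that rose and 5 that fell, Wt1 siRNA at the left and control siRNA at the right of each panel, with every vertical axis starting at 0. The groups do not overlap in any of the 10 panels. The rule for naming rises and falls required this, except for Slc44a2, which was named for its abundance.

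Of 21 carriers of sugars, polyols and organic acids, 4 rose and 1 fell, and the median was 0.00. The 4 rises held in every alternative. Slc45a4, related to proton-coupled sugar carriers, had 35.96, 41.2 and 32.04 CPM in Wt1 siRNA libraries, against 19.9, 19.8 and 18.5 CPM in controls (0.91 ± 0.14, adjusted p = 8.67e-04). Slc2a10, the glucose transporter family member GLUT10, had 27.3, 27.5 and 18.7 CPM in Wt1 siRNA libraries, against 14.3, 14.3 and 11.8 CPM in controls (0.86 ± 0.18, adjusted p = 0.00562). Slc2a3, the glucose carrier GLUT3 known best from neurons, had 18.8, 18.1 and 19.4 CPM in Wt1 siRNA libraries, against 12.4, 12.001 and 9.96 CPM in controls (0.71 ± 0.16, adjusted p = 0.00816). W6 was the lowest of its group for Slc45a4 and Slc2a10, and no control reached it. Slc37a3, of the sugar-phosphate carrier family, rose by 0.55 ± 0.11 on the log2 scale (adjusted p = 0.00381).

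Slc16a1, the monocarboxylate carrier MCT1 for lactate and pyruvate, was nearly level at 97.6, 95.1 and 101 CPM in Wt1 siRNA libraries, against 102, 92.5 and 97.8 CPM in controls, a log2 fold change of 0.00 ± 0.10, adjusted p = 0.984. Slc50a1, a sugar carrier of the SWEET family, was highest in W5 and in C2 of their groups (30.5, 48.3 and 27.01 CPM in Wt1 siRNA libraries, against 35.2, 62.2 and 34.8 CPM in controls), and did not pass (-0.32 ± 0.25, adjusted p = 0.414). Slc5a3, the sodium-inositol cotransporter, had 35.8, 32.7 and 43.1 CPM in Wt1 siRNA libraries, against 48.1, 43.9 and 75.1 CPM in controls and narrowly did not pass (-0.58 ± 0.19, adjusted p = 0.0513), although the groups did not overlap. The group held 2 falls with DESeq2, library size scaling, the stricter filter, no filter or W6 left out, and 3 without C2.

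Among 28 carriers of amino acids, peptides and neurotransmitters that the definition did not leave out, 5 rose and 2 fell, with a median of 0.04. The rises were mostly in the Slc38 family of neutral amino acid carriers, in which 3 of 5 members rose and 1 fell. Of all genes tested 9.05% were higher and 10.3% lower. Slc38a6 (chromosome 12, 73286739 to 73361998) had 51.96, 47.2 and 46.8 CPM in Wt1 siRNA libraries, against 23.4, 24.1 and 24.7 CPM in controls, with little spread in either group. The log2 fold change was 1.02 ± 0.12 (SE; edgeR, adjusted p = 1.78e-04). Slc38a7, which exports glutamine from lysosomes, had 26.03, 40.2 and 26.7 CPM in Wt1 siRNA libraries, against 18.1, 16.998 and 17.1 CPM in controls (0.83 ± 0.17, adjusted p = 0.00611), with W5 above the other two. Slc38a4, a carrier of the system A type, was scarce and had 3.12, 2.43 and 2.97 CPM in Wt1 siRNA libraries, against 1.17, 0.915 and 0.489 CPM in controls (1.71 ± 0.46, adjusted p = 0.0221). Slc7a7, the light chain that exchanges cationic for neutral amino acids, had 7.44, 8.63 and 6.45 CPM in Wt1 siRNA libraries, against 3.89, 4.36 and 2.10 CPM in controls (1.12 ± 0.29, adjusted p = 0.0195). Slc6a8, the creatine carrier and the most abundant member of the group, had 247, 295 and 250.4 CPM in Wt1 siRNA libraries, against 184, 218 and 206 CPM in controls (0.38 ± 0.11, adjusted p = 0.0349). The call of Slc6a8 was lost with library size scaling and when C1, C3, W4 or W5 was left out, that of Slc38a4 without C3, W4 or W6, and that of Slc7a7 without C3, W4 or W5.

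The falls were those of Slc38a10, a less studied Slc38 member, with 72.9, 80.7 and 76.4 CPM in Wt1 siRNA libraries, against 119.9, 136 and 116 CPM in controls (-0.69 ± 0.11, adjusted p = 0.00111), and of Slc6a17, a carrier of synaptic vesicles in brain, with 1.82, 0.942 and 1.75 CPM in Wt1 siRNA libraries, against 2.62, 3.17 and 5.75 CPM in controls (-1.35 ± 0.42, adjusted p = 0.0440). Slc6a17 did not pass with limma-voom or without C3 or any 1 of the Wt1 siRNA libraries. Slc36a2, a proton-coupled amino acid carrier, had 1.79, 0.109 and 0.814 CPM in Wt1 siRNA libraries, against 5.06, 3.59 and 2.33 CPM in controls, the most negative log2 fold change of the 152, and did not pass (-2.02 ± 0.67, adjusted p = 0.0525). Of the carriers listed by interest or by abundance, the taurine carrier Slc6a6 had 144 ± 7.60 CPM after Wt1 siRNA and 155 ± 17.6 CPM in controls (-0.10 ± 0.11, adjusted p = 0.587), Slc7a6 92.8 ± 2.97 CPM after Wt1 siRNA and 82.8 ± 17.6 CPM in controls (0.16 ± 0.15, adjusted p = 0.487), the cationic amino acid carrier Slc7a2 18.5 ± 1.76 CPM after Wt1 siRNA and 21.8 ± 3.68 CPM in controls (-0.24 ± 0.16, adjusted p = 0.351) and the glutamate carrier Slc1a3 3.24 ± 0.568 CPM after Wt1 siRNA and 2.79 ± 1.19 CPM in controls (0.21 ± 0.38, adjusted p = 0.762). None of these passed. The number of rises in the group was 2 without C3, 2 without W4 and 3 without W5, and 1 member fell without C3 or W5.

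Of 27 carriers of nucleosides, nucleotide sugars and acetyl-CoA, 6 rose and 1 fell, with a median of 0.19, the highest of the 6 groups. Of 22 Slc35 genes 5 rose and 0 fell, against 9.05% higher and 10.3% lower of all genes tested. The count of 0 falls was the same with edgeR, DESeq2 and limma-voom, although 2 were lower at an unadjusted p below 0.05 (edgeR). Without C2, W5 or W6, 1 Slc35 gene fell. Slc35a3, which brings UDP-N-acetylglucosamine into the Golgi apparatus, had 52.998, 56.98 and 48.9 CPM in Wt1 siRNA libraries, against 38.7, 31.96 and 41.5 CPM in controls (0.50 ± 0.13, adjusted p = 0.0186). Slc35g1 had 5.24, 4.53 and 5.57 CPM in Wt1 siRNA libraries, against 3.09, 1.83 and 2.48 CPM in controls (1.05 ± 0.30, adjusted p = 0.0282), and Slc35g2 had 14.6, 13.2 and 18.6 CPM in Wt1 siRNA libraries, against 10.3, 4.96 and 7.56 CPM in controls (1.02 ± 0.25, adjusted p = 0.0146). These 2 carriers are less studied, and in both the lowest Wt1 siRNA library stood above the highest control, as the rule for naming rises required. Slc35e4 had 13.5, 18.7 and 14.1 CPM in Wt1 siRNA libraries, against 10.9, 7.07 and 7.56 CPM in controls (0.86 ± 0.22, adjusted p = 0.0160). Slc35e2 had 42.8, 47.7 and 42.4 CPM in Wt1 siRNA libraries, against 23.4, 30.8 and 34.5 CPM in controls (0.58 ± 0.15, adjusted p = 0.0178). Slc33a1, which takes acetyl-CoA into the endoplasmic reticulum, rose by 0.36 ± 0.11 on the log2 scale (adjusted p = 0.0393); 32.02% of its exon bases are shared with a transcript of the opposite strand, and the strand setting of the counting is not given. Its call was lost with library size scaling and when C1, C2, W4, W5 or W6 was left out. The calls of the Slc35 genes were lost without C2, C3, W4 or W6 for Slc35g1, C3 or W6 for Slc35g2, C3 or W5 for Slc35e4, C1, W4 or W5 for Slc35e2, and W4 or W5 for Slc35a3.

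The fall of the group was that of Slc29a3, the nucleoside carrier ENT3 of lysosomes, with 27.1, 28.9 and 22.4 CPM in Wt1 siRNA libraries, against 44.1, 51.9 and 38.9 CPM in controls (-0.78 ± 0.15, adjusted p = 0.00326). The members with the most counts per kilobase did not pass: Slc35b1, an ATP and ADP exchanger of the endoplasmic reticulum, averaged 91.3 ± 22.4 CPM after Wt1 siRNA and 79.5 ± 13.1 CPM in controls (0.20 ± 0.17, adjusted p = 0.474), Slc35a1, the CMP-sialic acid carrier, 81.5 ± 8.49 CPM after Wt1 siRNA and 67.7 ± 8.30 CPM in controls (0.27 ± 0.13, adjusted p = 0.168) and Slc35f5 86.5 ± 3.47 CPM after Wt1 siRNA and 82.2 ± 20.1 CPM in controls (0.07 ± 0.15, adjusted p = 0.797). The number of rises in the group was 3 without C3, 2 without W4, 2 without W5 and 3 without W6, of which Slc35 genes made up 2, 2, 2 and 3. The group held 2 falls without C2, W5 or W6. Among 18 genes that make or use nucleotide sugars and sulfate donors, 2 were higher and 2 lower, near the background. Csgalnact1, an enzyme that starts chondroitin sulfate chains, had 11.4, 9.39 and 17.8 CPM in Wt1 siRNA libraries, against 39.5, 30.3 and 37.96 CPM in controls (-1.48 ± 0.22, adjusted p = 7.34e-04), and Chpf, a chondroitin polymerizing factor, rose by 0.47 ± 0.10 on the log2 scale (adjusted p = 0.00706). Cmas, which makes CMP-sialic acid, rose by 0.41 ± 0.11 on the log2 scale (adjusted p = 0.0227). Has1, a hyaluronan synthase, was scarce at 0.499 ± 0.338 CPM after Wt1 siRNA and 2.08 ± 0.524 CPM in controls. It fell by 2.03 ± 0.62 on the log2 scale (adjusted p = 0.0372). Has2 of the same list averaged 246 ± 89.5 CPM after Wt1 siRNA and 230 ± 72.0 CPM in controls. It did not pass (0.10 ± 0.24, adjusted p = 0.835). Of this list 1 was higher without C1, W4, W5 or W6 or with library size scaling, and 1 lower without any 1 library other than W6, where 3 were.

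**Figure D4:**
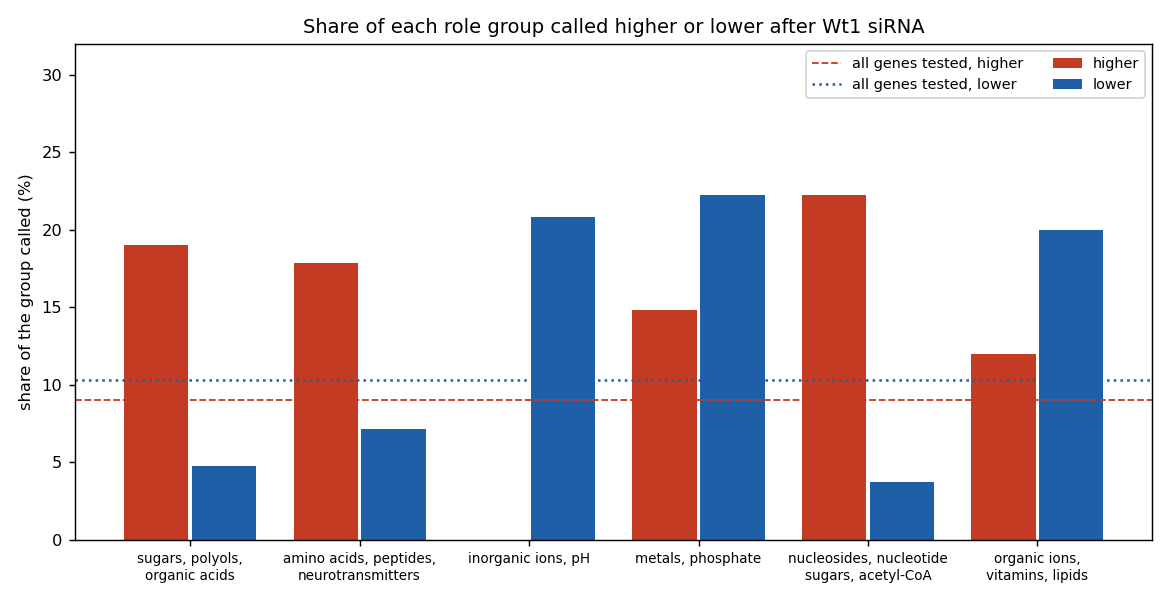
Share of each of the 6 role groups (21 to 28 genes) called higher (red) or lower (blue) after Wt1 siRNA, in percent, with dashed and dotted lines at the shares of all 14190 genes tested, 9.05% and 10.3%. Shares rest on 0 to 6 genes each; the group of inorganic ions and pH has no red bar, and 22.2% of the nucleoside and nucleotide sugar group was higher.

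Carriers of inorganic ions and regulators of pH held 5 falls and 0 rises among 24 genes, with a median of 0.06. The count of 0 rises was the same with edgeR, DESeq2 and limma-voom, and 3 were higher at an unadjusted p below 0.05. Slc9a8, a sodium-proton exchanger of the Golgi apparatus and endosomes, had 8.78, 13.3 and 12.1 CPM in Wt1 siRNA libraries, against 17.8, 19.4 and 20.4 CPM in controls (-0.75 ± 0.18, adjusted p = 0.0128). Slc4a4, the electrogenic sodium-bicarbonate cotransporter, had 45.002, 40.2 and 41.3 CPM in Wt1 siRNA libraries, against 72.5, 72.6 and 52.4 CPM in controls (-0.64 ± 0.14, adjusted p = 0.00760). Slc8a1, the sodium-calcium exchanger NCX1, had 48.98, 45.1 and 35.99 CPM in Wt1 siRNA libraries, against 63.03, 63.1 and 56.1 CPM in controls (-0.49 ± 0.13, adjusted p = 0.0239). In each of the 3 genes all Wt1 siRNA libraries lay below all controls, which was a condition of the rule for naming falls. Slc26a2, the sulfate carrier that supplies the sulfation of proteoglycans, had 12.8, 10.4 and 15.2 CPM in Wt1 siRNA libraries, against 21.7, 18.2 and 17.6 CPM in controls (-0.58 ± 0.18, adjusted p = 0.0400).

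The number of falls among the ion carriers was 2 without C1, C3, W4 or W5. The calls were lost without C3 or W4 for Slc9a8, C1, W5 or W6 for Slc8a1, and C1, C3, W4 or W5 for Slc26a2, whereas Slc4a4 kept its call throughout. Abundant members did not pass. Slc12a4, the potassium-chloride cotransporter KCC1, averaged 112 ± 19.3 CPM after Wt1 siRNA and 103 ± 11.4 CPM in controls (0.12 ± 0.14, adjusted p = 0.595). The anion exchanger Slc4a2 averaged 71.3 ± 6.52 CPM after Wt1 siRNA and 85.9 ± 7.20 CPM in controls (-0.27 ± 0.11, adjusted p = 0.128). Slc12a2, the sodium-potassium-chloride cotransporter NKCC1, had 33.4, 22.5 and 37.6 CPM in Wt1 siRNA libraries, against 27.04, 17.9 and 26.1 CPM in controls (0.40 ± 0.20, adjusted p = 0.206), with overlap.

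Partners and regulators of these carriers were taken from a list of 16 genes, of which 6 were lower and 1 higher, against 10.3% and 9.05% of all genes tested. Emb, embigin, a chaperone that brings monocarboxylate carriers to the membrane, had 9.34, 8.70 and 13.6 CPM in Wt1 siRNA libraries, against 26.6, 24.5 and 32.8 CPM in controls (-1.40 ± 0.19, adjusted p = 5.55e-04), whereas Bsg, basigin, the chaperone of Slc16a1, averaged 1319 ± 56.6 CPM after Wt1 siRNA and 1158 ± 252 CPM in controls and did not pass (0.19 ± 0.14, adjusted p = 0.385). The sodium pump, which keeps the gradient that many carriers use, has several subunits, of which Atp1b1 fell by 0.73 ± 0.15 on the log2 scale (adjusted p = 0.00454). Atp1b2, scarce in both groups, fell by 1.98 ± 0.55 on the log2 scale (adjusted p = 0.0266). Slc9a3r1, the scaffold NHERF1 of the sodium-proton exchangers, had 14.3, 16.3 and 12.1 CPM in Wt1 siRNA libraries, against 35.2, 41.3 and 19.4 CPM in controls (-1.17 ± 0.24, adjusted p = 0.00509). Sgk1, a kinase that activates many carriers, fell by 0.98 ± 0.27 on the log2 scale (adjusted p = 0.0263), with overlap of the groups. Nedd4l, a ubiquitin ligase of membrane carriers, fell by 0.69 ± 0.13 on the log2 scale (adjusted p = 0.00312). Stk39, a kinase upstream of the Slc12 cotransporters, rose by 0.50 ± 0.12 on the log2 scale (adjusted p = 0.0126), a rise that was not called without W4; 2 of the list were higher with DESeq2, with limma-voom and without C2.

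Of 10 carbonic anhydrases, which make the bicarbonate that Slc4 proteins move, 6 were tested. Car12, an enzyme of the outer cell surface, had 5.73, 4.75 and 5.07 CPM in Wt1 siRNA libraries, against 2.22, 1.16 and 1.504 CPM in controls (1.66 ± 0.33, adjusted p = 0.00464), and Car2, the cytosolic enzyme, had 118, 112 and 114 CPM in Wt1 siRNA libraries, against 157, 156 and 176 CPM in controls (-0.51 ± 0.10, adjusted p = 0.00457). Of 10 Slco genes, organic anion carriers outside the symbol rule, 4 were tested and 0 passed with edgeR or limma-voom; 1 was lower with DESeq2, and 2 were lower at an unadjusted p below 0.05. Slco2a1, the prostaglandin carrier, averaged 67.6 ± 8.21 CPM after Wt1 siRNA and 82.8 ± 10.1 CPM in controls (-0.29 ± 0.13, adjusted p = 0.140).

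Slc22a5 and Slc22a4, carnitine and ergothioneine carriers, and Slc22a21 lie side by side on chromosome 11 and had log2 fold changes of 0.38, 0.21 and 0.38, none of which passed; the 3 are similar in sequence, so that reads could be shared. Of 10 pairs of neighbouring members, with gaps of 2782 to 155433 bases between the genes, none had both members called. The called genes among them were Slc39a1, beside Slc27a3, and Slc6a17, beside Slc16a4.

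**Figure D5:**
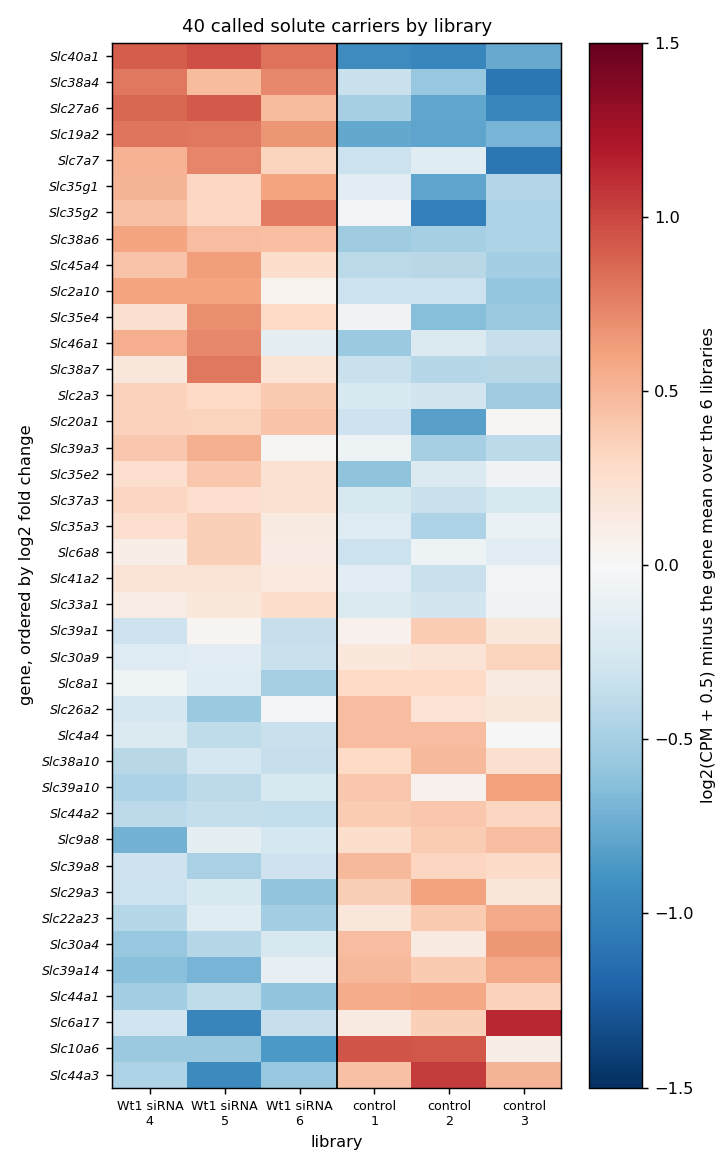
Level of 40 of the 42 called carriers in each library, as log2(CPM + 0.5) minus the mean of the gene over the 6 libraries, Wt1 siRNA libraries 4 to 6 at the left and control libraries 1 to 3 at the right, with genes from the largest rise to the largest fall. Rises are red at the left and falls blue. For some genes a library stands nearer to the other group than to the rest of its own. Examples are Slc46a1 in W6 (7.23 CPM), Slc10a6 in C3 (5.11 CPM) and Slc4a4 in C3 (52.4 CPM).

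Of the 42 called carriers, 22 kept their call in all 13 alternatives tried, 9 that rose and 13 that fell. The rises were Slc40a1, Slc27a6, Slc19a2, Slc38a6, Slc38a7, Slc45a4, Slc2a10, Slc2a3 and Slc37a3. The falls included the 3 Slc44 genes, Slc10a6, Slc39a14, Slc39a10, Slc39a8, Slc30a4, Slc30a9, Slc29a3, Slc4a4 and Slc38a10. The other 20 lost the call under at least 1 alternative, most often with a library left out.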

How the data were processed

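RNA sequencing of 6 libraries, 3 Wt1 siRNA and 3 control siRNA, was analysed from a table of raw counts per gene that the authors deposited, with mouse Entrez gene IDs and 1 column per library. Per the submitters' processing notes, bcl2fastq, CASAVA 1.8, TopHat and DESeq were used with mm10 (GRCm38); the counting program and its strand setting are not named. Reads shared by paralogs or overlapping genes may therefore be lost or added. Symbols came from RefSeq (GRCm38.p6; 23976 IDs) and GENCODE M21 (7 IDs), and 78 IDs stayed unnamed and took 0.435% to 1.71% of a library's counts. Gene coordinates came from RefSeq and exon lengths from GENCODE M21.

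Genes were filtered with filterByExpr (14190 kept) and tested in edgeR 4.0.16 (R 4.3.3) with TMM factors, a quasi-likelihood fit on the siRNA group and Benjamini-Hochberg adjustment over all genes kept, at a threshold of 0.05. The common biological coefficient of variation came to 0.191, with TMM factors between 0.940 and 1.07. At these depths 3 counts, the floor used for a gene with none, amount to 0.0926 to 0.113 CPM, for counting error only. Scripts were tested on simulated counts. Replicates of a group differed by more than counting noise (chi-square per degree of freedom 18.9 to 70.9).

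Alternatives were DESeq2 1.42.0, limma-voom (limma 3.58.1), library size scaling, RLE factors, a stricter filter (CPM of at least 1 in at least 3 libraries), no filter, robust shrinkage and each library left out in turn. The members, lists and role groups were chosen with earlier results of these data known. Members were named if among the 4 largest called rises or falls of a role group without overlap of the groups, among the 3 with the most counts per kilobase in it, or listed for interest; Wt1 was named too, and 57 genes in all, some of which are not reported here. Other members, and the genes named from the lists of related genes, were chosen after their values were seen. Counts by family and by list of related genes, and the background of genes with 300 or more counts, were added after the data had been seen.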

Additional observations from a re-analysis of the deposited data

How the results depend on the processing

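No paired analysis was possible because the groups share no replicate numbers (1 to 3 for control siRNA, 4 to 6 for Wt1 siRNA). The 43 called genes named by the rule or among the members, Wt1 included, gave 559 values under the 13 alternatives. None of these reversed; 75 missed the threshold, 67 of them with a library left out, which also leaves fewer samples. Of 234 values of the 18 named genes that were not called, 1 passed. With library size scaling, which moved the median log2 fold change of all genes to -0.08, 855 genes in all, 2 metal carriers and 1 user of nucleotide sugars were higher, and 2 Slco genes lower. Sugar carriers held 2 falls with DESeq2, library size scaling, the stricter filter and no filter, and the Slco list 1 fall with DESeq2, the stricter filter and no filter. Partners and regulators held 2 rises with DESeq2 and limma-voom. With 1 library left out, 578 to 1253 genes in all were higher and 785 to 1406 lower, and 11 to 19 carriers were higher and 14 to 25 lower. Rises and falls were 2 to 5 and 1 to 2 for amino acids, 0 and 2 to 5 for inorganic ions, 1 to 4 and 5 to 7 for metals, 2 to 5 and 1 to 2 for nucleosides and nucleotide sugars, 2 to 3 and 4 to 6 for organic ions, and 4 and 1 to 3 for sugars. They were 0 to 2 and 4 to 5 for partners, 0 to 1 and 3 to 6 for zinc and iron handling, 1 to 2 and 1 to 3 for users of nucleotide sugars, and 0 and 0 to 1 for Slco. The cause was not tested. At these depths 3 counts amount to 0.0926 to 0.113 CPM.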
